A study of Mus musculus with 14 samples.

Results

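The glucocorticoid receptors and the chaperone complex that holds them ready for hormone were followed here as 7 genes, chosen by name: the receptors Nr3c1 and Nr3c2, the co-chaperones Fkbp5, Fkbp4, Ptges3 and Stip1, and the enzyme Hsd11b1. They are 7 of the 24844 genes kept from the nucleus accumbens tables and of the 33006 genes of the sorted-cell table. Both kinds of table hold every one of them. The study gave male C57BL/6 mice morphine sulfate or, as mock treatment, saline, injected into the peritoneum. The labels give neither a dose nor the time from injection to collection. The accumbens, a part of the ventral striatum tied to reward, was profiled by Drop-seq, which tags the transcripts of single cells with a barcode and a unique molecular identifier (UMI). There were 4 morphine and 4 mock pools, each of 2 mice, and morphine and mock pools of the same number came from mice of the same age range: 42 to 45 days for number 1, 37 to 42 days for number 2, 78 to 82 days for number 3 and 78 days for number 4. In addition, 3 morphine and 3 mock libraries of bulk RNA came from oligodendrocytes, the cells that make myelin, that were isolated by sorting whole brain at 70 days of age. The question these genes address is whether the receptor machinery itself differs after morphine and how its level in each cell class goes with the response of its target Fkbp5.

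Glucocorticoid hormones enter cells and bind receptors that wait in the cytoplasm inside a complex built on the chaperone Hsp90. Stip1 (also called Hop) hands the receptor from Hsp70 to Hsp90, Ptges3 (p23) holds the mature complex that can bind hormone, and the immunophilins Fkbp5 and Fkbp4 compete for a place on Hsp90. Fkbp4 links the complex to transport into the nucleus, whereas Fkbp5 lowers the receptor's affinity for hormone and is itself induced by the receptor, which closes a feedback loop. Nr3c1 encodes the glucocorticoid receptor and Nr3c2 the mineralocorticoid receptor, which binds the same hormone more tightly. Hsd11b1 encodes an enzyme that regenerates active hormone from its inactive form inside the cell.

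The RefSeq promoter table on GRCm38.p6 matched 6 of the 7 members. The promoters of the 4 co-chaperones are shown because these genes moved in the sorted cells, Fkbp5 one way and the other three the opposite way. Each runs 5′ to 3′ on the gene's strand from 250 bases before to 50 bases after the start site, and capitals mark matches on either strand to AGAACA, one arm of the glucocorticoid receptor's element, to GAANNTTC or TTCNNGAA, a pair of heat shock factor units, to CCAAT and to TATAAA.
Fkbp5, chr17:28486100-28486399, minus strand: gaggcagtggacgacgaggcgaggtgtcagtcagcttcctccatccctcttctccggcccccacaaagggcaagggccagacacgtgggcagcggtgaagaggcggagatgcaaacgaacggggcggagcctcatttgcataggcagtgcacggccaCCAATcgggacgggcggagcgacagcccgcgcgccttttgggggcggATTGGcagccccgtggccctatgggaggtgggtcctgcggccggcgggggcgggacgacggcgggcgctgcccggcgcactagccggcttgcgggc
Fkbp4, chr6:128438607-128438906, minus strand: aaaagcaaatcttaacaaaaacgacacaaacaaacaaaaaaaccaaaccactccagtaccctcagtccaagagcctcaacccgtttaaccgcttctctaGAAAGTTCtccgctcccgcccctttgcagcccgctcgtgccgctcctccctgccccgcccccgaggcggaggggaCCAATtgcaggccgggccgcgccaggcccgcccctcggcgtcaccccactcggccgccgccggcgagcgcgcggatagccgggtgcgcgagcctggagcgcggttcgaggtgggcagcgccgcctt
Stip1, chr19:7039977-7040276, minus strand: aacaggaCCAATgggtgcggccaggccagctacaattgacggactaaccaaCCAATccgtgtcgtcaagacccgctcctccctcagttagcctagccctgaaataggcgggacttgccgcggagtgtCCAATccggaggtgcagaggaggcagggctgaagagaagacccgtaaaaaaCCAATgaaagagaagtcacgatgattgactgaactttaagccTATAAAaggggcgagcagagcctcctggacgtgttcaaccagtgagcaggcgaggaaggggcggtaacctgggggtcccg
Ptges3, chr10:128058732-128059031, plus strand: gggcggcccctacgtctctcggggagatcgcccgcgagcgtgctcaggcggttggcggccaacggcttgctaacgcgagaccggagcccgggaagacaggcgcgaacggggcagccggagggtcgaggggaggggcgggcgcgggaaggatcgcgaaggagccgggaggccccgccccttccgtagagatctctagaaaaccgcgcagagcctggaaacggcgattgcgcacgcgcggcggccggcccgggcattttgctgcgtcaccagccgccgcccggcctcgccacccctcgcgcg
The start used by RefSeq for Fkbp5 lies inside the longer span that GENCODE gives the gene. The Stip1 window lies wholly upstream of the span that GENCODE gives Stip1. Distances to a start site below are from the RefSeq start. None of the 4 windows holds AGAACA, which 18.97% of the 32851 promoters of the table hold. The heat shock pair, found in 15.1% of all promoters, occurs once in Fkbp4, starting 151 bases before the start site, and in none of the other three, and no window holds a run of 3 alternating units (0.603% of all promoters). CCAAT, found in 37.4% of all promoters, occurs 4 times in Stip1, 2 times in Fkbp5 and 1 time in Fkbp4, and TATAAA (13.6% of all promoters) only in Stip1, starting 30 bases before the start site. These matches describe letters in these windows only.

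In the GENCODE vM21 annotation of build GRCm38, Nr3c1 lies on chromosome 18 (minus strand, 39410545 to 39519421) and Nr3c2 on chromosome 8 (plus strand, 76899442 to 77245012). Fkbp5 lies on chromosome 17 (minus strand, 28399094 to 28517527), Fkbp4 on chromosome 6 (minus strand, 128429735 to 128438677), Ptges3 on chromosome 10 (plus strand, 128058954 to 128077272), Stip1 on chromosome 19 (minus strand, 7020702 to 7039967) and Hsd11b1 on chromosome 1 (minus strand, 193221634 to 193264075). An exon of Gm10649 on the other strand overlaps Nr3c2, and since no source says whether counting used strand, reads of these genes could not be told apart. No exon of another gene overlaps the other members.

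The 8 pools held 31568 cells after filtering, with 2673 to 5554 cells and 6352124 to 22598528 UMIs per pool, while 14989118 to 23456702 reads per sorted library fell in genes. Clusters were grouped by their markers into 16 classes of cells like those the markers name, of which 15 could be tested over pools. Clusters with 4552 cells stayed unnamed, among them a cluster led by Sfrp1 with astrocyte markers, in which 25.5% of cells had high doublet scores against a limit of 25% set with the data in view. That cluster held 2.03% to 5.21% of cells in morphine pools and 1.61% to 9.16% in mock pools. The D1 medium spiny neuron class joined a cluster led by Drd1 with one led by Tac2, Lypd1 and Foxp2. The latter held 2714 cells before doublets were removed, and its marker score of 1.59 was near the minimum of 1.5. Of the 7861 cells of the class, 4702 were also D1 by marker scores of single cells. The joined clusters were not read apart. Of the barcodes kept, 40 occurred in more than 1 pool. In the sorted libraries the 10 oligodendrocyte markers summed to 65240 to 66200 CPM (counts per 1000000) in morphine libraries and 61850 to 64640 CPM in mock libraries, against 764 to 827 CPM and 705 to 877 CPM for the 10 astrocyte markers. The median mitochondrial share per cell was 4.77% to 7.0% in morphine pools and 3.00% to 4.62% in mock pools, so the groups did not overlap, and its part in the differences below was not tested.

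In sorted oligodendrocytes Fkbp5 rose (log2 fold change 3.48), whereas Nr3c1, Stip1, Fkbp4 and Ptges3 fell and Nr3c2 and Hsd11b1 did not pass the test. Of the 7 members 1 rose and 4 fell, where 8.09% of the 15751 genes tested rose and 6.68% fell. A gene is called where edgeR's quasi-likelihood test, adjusted by Benjamini and Hochberg's method over every gene tested, gives less than 0.05. In bulk samples, fewer cells of a type and less RNA per cell cannot be told apart. Where groups are said not to overlap, the share of all genes without overlap was not counted, so this only describes the values.

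The glucocorticoid receptor itself was lower after morphine. Nr3c1 stood at 99.9, 96.1 and 88.0 CPM in the 3 morphine libraries, against 126, 133 and 130 CPM in the mock libraries. Every morphine library was below every mock library. The log2 fold change was -0.43 (SE 0.064, edgeR adjusted p = 3.56e-05). Nr3c2 was scarce, at 11.5, 14.4 and 11.4 CPM in morphine and 13.8, 14.5 and 10.2 CPM in mock libraries. Its groups overlapped, and the log2 fold change was -0.02 (SE 0.135, edgeR adjusted p = 0.945). Per kilobase of exon the glucocorticoid receptor stood at 12.3 ± 0.79 RPKM in morphine libraries and 16.9 ± 0.456 RPKM in mock libraries, and the mineralocorticoid receptor at 1.92 ± 0.26 and 1.98 ± 0.359 RPKM (SD, n = 3 each). Markers of endothelial cells, the class with the most Nr3c1 in the accumbens, moved the same way as Nr3c1: their 9 markers summed to 42.6 to 58.7 CPM in morphine libraries and 68.3 to 73.2 CPM in mock libraries, and 4 of the 9 fell. None of these 9 markers was under 0.5 CPM in every library, and their part in the fall of Nr3c1 was not tested.

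Fkbp5 was the one member that rose. It stood at 99.3, 110 and 103 CPM in the morphine libraries, against 10.1, 7.41 and 10.6 CPM in the mock libraries. Every morphine library was far above every mock library. The log2 fold change was 3.48 (SE 0.095, edgeR adjusted p = 2.81e-16), and the authors' deposited table gives 3.41. Per kilobase of exon, Fkbp5 was at 11 ± 0.573 RPKM in morphine libraries, nearer to Fkbp4 at 17.3 ± 1.25 RPKM, whereas in mock libraries the pair stood at 0.99 ± 0.182 RPKM for Fkbp5 and 24.5 ± 2.4 RPKM for Fkbp4 (SD, n = 3 each).

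The other co-chaperones went the opposite way. Stip1 had 43.1, 41.1 and 39.2 CPM in the morphine libraries, against 83.0, 80.9 and 78.6 CPM in the mock libraries. Every morphine library was below every mock library, with a log2 fold change of -0.95 (SE 0.069, edgeR adjusted p = 1.18e-09). Fkbp4 had 45.5, 47.0 and 52.1 CPM after morphine and 68.4, 61.9 and 75.3 CPM after mock treatment. Its groups did not overlap either, and the log2 fold change was -0.48 (SE 0.075, edgeR adjusted p = 5.82e-05). Ptges3, at 14.3, 15.4 and 16.9 CPM in morphine and 21.2, 19.4 and 22.9 CPM in mock libraries, had a log2 fold change of -0.42 (SE 0.096, edgeR adjusted p = 0.0035). The authors' deposited table holds the same directions for these 3 genes, at -0.91 for Stip1, -0.45 for Fkbp4 and -0.38 for Ptges3. Hsd11b1 was low, with 28 to 51 reads per library, at 2.37, 1.53 and 2.17 CPM in morphine and 1.81, 2.60 and 1.57 CPM in mock libraries, with a log2 fold change of 0.07 (SE 0.292, edgeR adjusted p = 0.924).

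**Figure D1:**
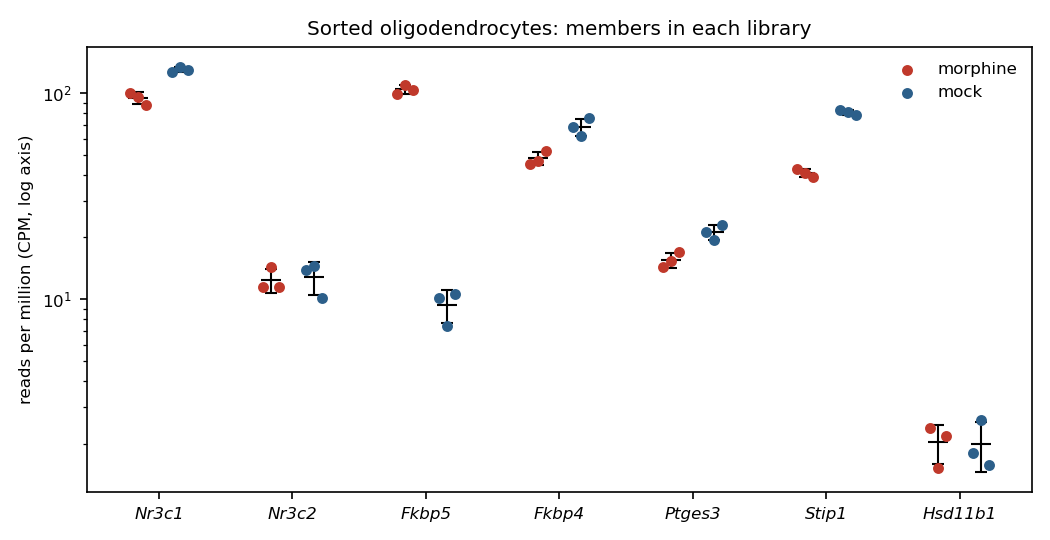
CPM of reads on a log axis for the 7 members in each sorted oligodendrocyte library, morphine (red) left of mock (blue), with the mean and SD of 3 libraries in black. Fkbp5 is at 99.3 to 110 CPM in morphine against 7.41 to 10.6 CPM in mock libraries, while Nr3c1, Fkbp4, Ptges3 and Stip1 are lower in every morphine library than in every mock library.

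The genes around the members in the sorted cells were read in lists by role. Of 24 genes of the receptor's Hsp90 cycle 11 fell and 2 rose, where 6.68% of all genes fell and 8.09% rose. The list holds the receptors and the 4 co-chaperones, so Nr3c1, Stip1, Fkbp4 and Ptges3 are among the 11 and Fkbp5 among the 2. Its median log2 fold change was -0.24 against -0.02 over all genes tested. The list was chosen with earlier results known, so its count is not independent evidence. Hsp90ab1, the constitutive cytosolic Hsp90, stood at 313 ± 5.12 CPM in morphine and 527 ± 23.4 CPM in mock libraries (log2 fold change -0.73), and Chordc1, an Hsp90-binding protein, at 55.3 ± 2.92 and 95.8 ± 7.81 CPM (log2 fold change -0.77; SD, n = 3 each; edgeR adjusted p = 1.88e-09 and 4.54e-08). The second gene of the cycle that rose, next to Fkbp5, was Ppp5c, named after its values were seen, a phosphatase that also binds Hsp90, at 42.6 ± 0.757 CPM in morphine and 28.5 ± 1.55 CPM in mock libraries (SD, n = 3 each; log2 fold change 0.60, edgeR adjusted p = 3.91e-06). Of 8 tested genes of steroid supply and export 2 rose and none fell, where 8.09% of all genes rose. H6pd, which makes the NADPH that the enzyme encoded by Hsd11b1 uses, had 6.80, 8.25 and 6.01 CPM in morphine and 1.44, 2.00 and 1.14 CPM in mock libraries, with a log2 fold change of 2.24 (SE 0.219, edgeR adjusted p = 1.14e-07). Por, the electron donor of steroid-metabolizing cytochromes, was at 35.7 ± 2.69 CPM in morphine and 29.1 ± 2.48 CPM in mock libraries (SD, n = 3 each; log2 fold change 0.31, edgeR adjusted p = 0.0103). Without morphine library 2 or 3 Por's adjusted p was 0.0643 and 0.0741.

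In the other lists the shares called are read against 8.09% of all genes rising and 6.68% falling, and counts this small do not set a list apart from them. Of 14 genes of nuclear import and dynein transport 1 fell and none rose (median log2 fold change 0.07), and the one was Dynll1, a dynein light chain, at 32.7 ± 3.24 CPM in morphine and 56.7 ± 7.53 CPM in mock libraries (SD, n = 3 each; log2 fold change -0.77, edgeR adjusted p = 1.64e-06). Of 19 receptor co-regulators 2 rose and 1 fell (median 0.04). Med14, a Mediator subunit, fell (log2 fold change -0.44, edgeR adjusted p = 1.7e-05), and Smarcd1, a chromatin remodeller subunit, rose (0.26, edgeR adjusted p = 0.00961), though leaving out single libraries raised the adjusted p of Smarcd1 to as much as 0.0878. Of 7 tested other nuclear receptors only Rxra, the partner of many of them, passed, at a log2 fold change of 0.69 (edgeR adjusted p = 0.000312). Of 10 tested other FKBP immunophilins 2 rose and none fell: Fkbp9 and Fkbp14, both of the endoplasmic reticulum, at log2 fold changes of 0.78 and 0.74 (edgeR adjusted p = 3.59e-05 and 3.96e-05). Fkbp14 and Smarcd1, and Cdkn1a below, overlap exons of a gene on the other strand, so reads of these pairs could not be told apart.

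Genes known to be induced by glucocorticoids were the list with most calls: 25 of 27 tested rose and none fell, against 8.09% of all genes rising, with a median log2 fold change of 1.74. The list was chosen with these results known, so its direction is not independent evidence. By the smallest p they are led by Cdkn1a, an inhibitor of the cell cycle (log2 fold change 5.48), Sgk1, a kinase (3.98), Arrdc2, an arrestin-like protein (3.01), and Nfkbia, an inhibitor of NF-kappa-B (2.77), with edgeR adjusted p of 1.52e-19, 1.52e-19, 6.87e-16 and 1.35e-15. Fkbp5 is not counted in this list.

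Across the accumbens in mock pools, Nr3c1 was widespread. UMIs come from the 3′ end of transcripts, so CPM of UMIs were compared between genes directly. Mean Nr3c1 was highest in the endothelial class (261 ± 50.7 CPM), then microglia (206 ± 14.0), oligodendrocyte precursors (192 ± 40.1) and oligodendrocytes (180 ± 40.5 CPM, SD, n = 4 each). Perivascular macrophages, from 3 mock pools, were at 163 ± 127 CPM. Astrocytes, excitatory neurons, mural cells, D1 medium spiny neurons, newly formed oligodendrocytes and D2 medium spiny neurons followed at 160, 146, 121, 119, 117 and 115 CPM. Dividing progenitors, ependymal cells, interneurons and neuroblasts were lowest, at 72.8, 64.8, 63.9 and 30.6 CPM. The ranges over mock pools of any 2 neighbours in this order overlapped, so the order of neighbours was not beyond their spread.

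Nr3c2 had another order. The receptor was highest in D2 medium spiny neurons, the projection neurons of the accumbens that carry dopamine receptor 2, where it stood at 13.9, 40.3, 16.9 and 28.4 CPM in the 4 morphine pools and 29.3, 39.3, 33.7 and 32.7 CPM in the mock pools. D1 medium spiny neurons had 28.9 ± 7.95 CPM in mock pools, and oligodendrocytes 5.74 ± 1.12 CPM (SD, n = 4 each). All neighbours in the order overlapped except oligodendrocytes and dividing progenitors. Nr3c2 was not detected in dividing progenitors of mock pools (0 of 711902 UMIs, which allows up to 4.21 CPM over the group) and had 7 UMIs of 785895 in those of morphine pools. As a result, mock oligodendrocytes held 31.4 times as much Nr3c1 as Nr3c2, newly formed oligodendrocytes 20.2, endothelial cells 16.01 and precursors 13.3 times as much, against 4.12 times in D1 and 3.41 times in D2 medium spiny neurons. The ratio was 8.54 in sorted mock oligodendrocytes by RPKM, a different scale from UMIs. The ratios compare group means and were not tested. In the accumbens their Nr3c2 side rests on few UMIs in mock pools. These were 26 in oligodendrocytes, 4 in newly formed oligodendrocytes, 28 in endothelial cells and 15 in precursors. D1 and D2 medium spiny neurons had 484 and 316.

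**Figure D2:**
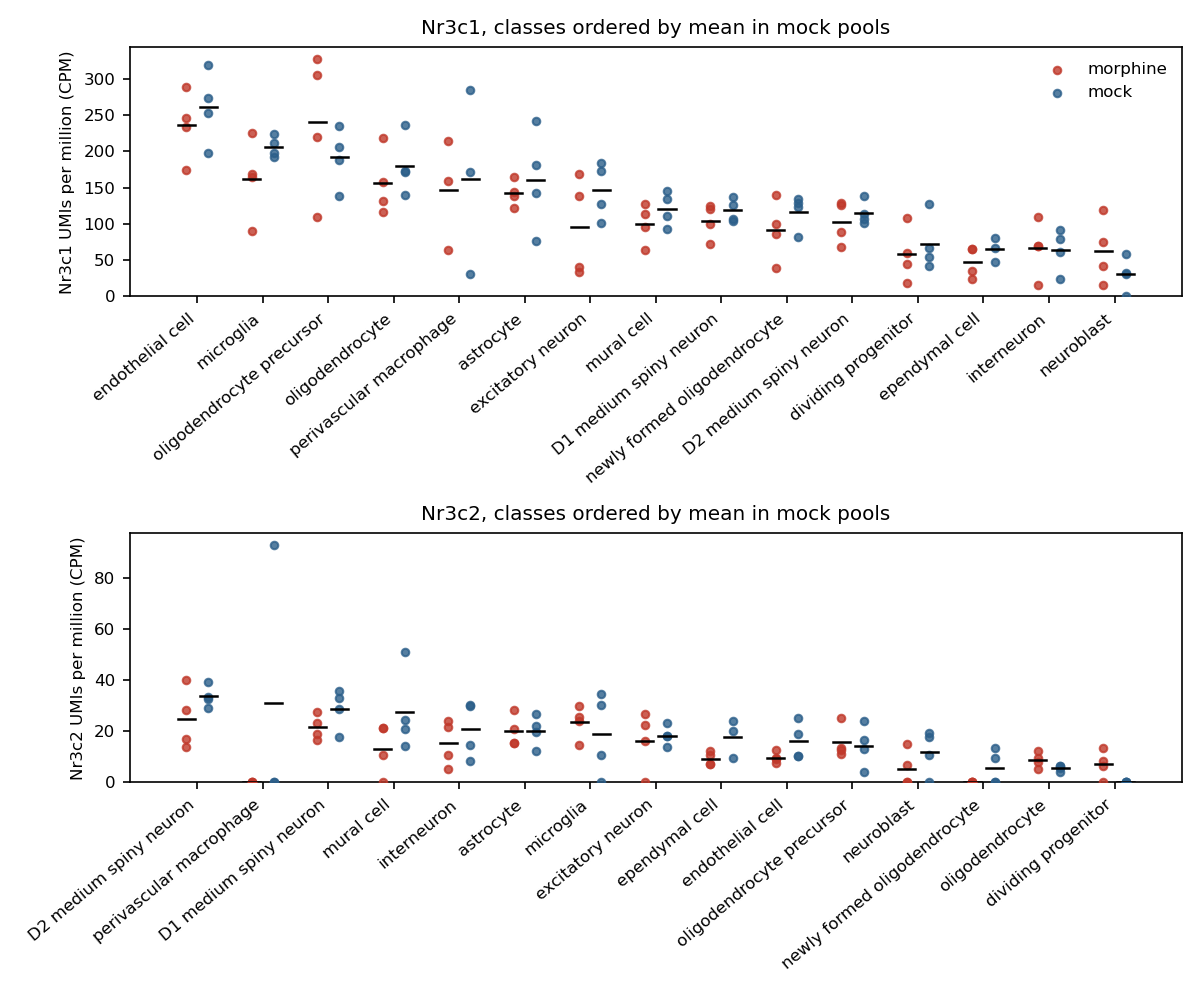
CPM of UMIs of Nr3c1 (top) and Nr3c2 (bottom) by cell class, 1 point per pool, morphine (red) left of mock (blue), bars at group means, classes ordered by the mean in mock pools. Nr3c1 is highest in the endothelial class at 261 CPM in mock pools, while Nr3c2 is highest in D2 medium spiny neurons at 33.8 CPM and near 5.74 CPM in oligodendrocytes.

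Between morphine and mock pools neither receptor was called in any class. Nr3c1 was tested in 12 classes, with log2 fold changes of -0.25 to 0.40 and a median of -0.10, and had an unadjusted p under 0.05 in none. In the oligodendrocyte class it stood at 117, 157, 132 and 219 CPM in morphine pools and 139, 171, 173 and 236 CPM in mock pools. The groups overlapped, and in each of the 4 same-numbered pairs, which share an age range, the morphine pool was the lower. The log2 fold change there was -0.14 (SE 0.205, edgeR adjusted p = 0.999), or -0.15 with the replicate number as a block (SE 0.115, edgeR adjusted p = 0.769), and the difference from the fall in the sorted cells was not tested. Nr3c2 passed the filter on low counts in 5 classes, all with log2 fold changes below 0, the largest -0.34 in D2 medium spiny neurons (SE 0.258, edgeR adjusted p = 1). Over all 15 classes, which share pools and are not independent, its mean was lower after morphine in 11 and higher in 4. Oligodendrocytes, where it was too scarce to test, had 41 UMIs in morphine and 26 in mock pools (means of 8.77 and 5.74 CPM).

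By the rule of likeness, the genes whose mock levels over the 15 classes were most like those of Nr3c1 among 12812 genes were Mitd1, Taf9b and Tgfbrap1 (Pearson r of mean log2 CPM 0.869, 0.853 and 0.846). Those most like Nr3c2 were Pitpnm2, Cry2 and Rhot2 (0.896, 0.883 and 0.870), and those most like Fkbp5 were Zfp652, Man2c1 and Ube2f (0.876, 0.858 and 0.853). The classes share libraries, and they differ in depth, so these values only describe the levels.

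Fkbp5 was higher after morphine in each of the 11 accumbens classes where it was tested, with log2 fold changes of 0.41 to 1.46, yet it was called in none over all genes of its class. Few genes were: 0.0409% of 7331 in astrocytes, 0.0799% of 8757 in oligodendrocytes and 0 in the other 13 classes. By unadjusted p under 0.05, 9 of the 11 classes passed, where 4.24% of genes passed in astrocytes, 5.04% in oligodendrocytes, 3.11% in the endothelial class and 2.24% in microglia. The 11 classes come from the same 8 pools and are not independent of each other. Their choice was not blind to direction, since Fkbp5 in perivascular macrophages passed the filter through its morphine pools alone. In interneurons and mural cells, too, the mock pools alone fell short of it, with the lowest mock pool at 0 and 12.15 CPM. Over all 15 classes the morphine mean was higher in 13 and lower in 2, both untested.

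In astrocytes, which support synapses and vessels, Fkbp5 stood at 166, 102, 194 and 114 CPM in morphine pools 1 to 4, against 47.6, 30.8, 33.8 and 95.7 CPM in mock pools. Every morphine pool was above every mock pool. The log2 fold change was 1.46 (SE 0.301, edgeR adjusted p = 0.114). In oligodendrocytes it stood at 86.5, 118, 140 and 128 CPM in morphine pools and 27.5, 50.8, 41.4 and 87.7 CPM in mock pools. Mock pool 4 was above the lowest morphine pool, and the log2 fold change was 1.21 (SE 0.26, edgeR adjusted p = 0.156). With the replicate number as a block, which the pools' pairing allows in these classes, the adjusted p fell to 0.00208 in astrocytes and 8.63e-05 in oligodendrocytes at log2 fold changes of 1.44 and 1.23, so both were then called. Mock pool 4 was the mock pool with most Fkbp5 in 7 of the 11 classes. Without it the log2 fold changes were 2.01 in astrocytes and 1.59 in oligodendrocytes, and edgeR's adjusted p was 0.00138 and 0.00912. That pool was picked for its high Fkbp5, so these values are not independent support. With each pool left out in turn the log2 fold change was 1.23 to 2.01 in astrocytes and 1.05 to 1.59 in oligodendrocytes. No gene was called in oligodendrocytes without mock pool 1 or 2 or morphine pool 1 or 3, while some were without each other pool. By age, the pools of younger mice alone gave 1.81 in astrocytes and 1.37 in oligodendrocytes, and the pools of older mice alone 1.19 and 1.10 (2 against 2 pools each). The median mitochondrial share per cell was 8.10% to 10.3% in morphine and 4.08% to 5.63% in mock astrocytes, and 4.50% to 7.42% and 2.89% to 4.16% in oligodendrocytes. Its part in the Fkbp5 difference was not tested.

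Perivascular macrophages, microglia and the endothelial class had the highest mean levels in both groups. In the endothelial class Fkbp5 was at 163, 126, 247 and 181 CPM in morphine pools and 38.7, 44.7, 82.3 and 134 CPM in mock pools, with overlap through mock pool 4. The log2 fold change was 1.29 (SE 0.354, edgeR unadjusted p = 0.00288, adjusted p = 1). Microglia, the resident immune cells, had 310, 248, 323 and 337 CPM in morphine pools and 69.5, 143, 244 and 171 CPM in mock pools, without overlap, and a log2 fold change of 0.98 (SE 0.337, edgeR adjusted p = 0.999). Perivascular macrophages were highest of all, at 411, 358 and 385 CPM in 3 morphine pools and 133.8, 249.0 and 248.2 CPM in 3 mock pools, on 40 and 22 UMIs. These groups did not overlap, and the log2 fold change was 1.00 (SE 0.483, edgeR adjusted p = 0.995). Only the morphine pools were high enough to pass the filter, so neither the fold change nor the lack of overlap is independent support.

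The medium spiny neurons had the smallest values of the tested classes, where the D1 class is the joined one described above. D1 medium spiny neurons stood at 76.7, 93.9, 83.8 and 71.9 CPM in morphine pools and 55.8, 65.9, 52.9 and 80.1 CPM in mock pools, with a log2 fold change of 0.41 (SE 0.159, edgeR adjusted p = 1). D2 medium spiny neurons had 0.56 (SE 0.188), excitatory neurons 0.80 (SE 0.268), whose groups did not overlap but whose morphine pools 1 and 3 held 4 UMIs each, and interneurons 0.81 (SE 0.381). Mural cells had 0.80 (SE 0.447) and oligodendrocyte precursors 0.61 (SE 0.298). In interneurons and mural cells the mock pools alone did not pass the filter, so the direction of their fold changes is not independent support. Fkbp5 was too scarce to test in 4 classes: neuroblasts had 44.5 ± 13.2 CPM after morphine and 45.5 ± 20.2 CPM after mock treatment, and dividing progenitors 46.0 ± 20.5 and 51.9 ± 19.97 CPM (SD, n = 4 each), the only classes whose morphine mean was not the higher one. Over all cells of a pool Fkbp5 had 89.4, 92.5, 108 and 79.7 CPM in morphine pools and 44.4, 56.5, 51.9 and 75.0 CPM in mock pools, without overlap, and a log2 fold change of 0.75 (SE 0.184, edgeR adjusted p = 1). No gene was called over all cells by edgeR, 243 of 15018 had an unadjusted p under 0.05, and DESeq2 called 4.

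**Figure D3:**
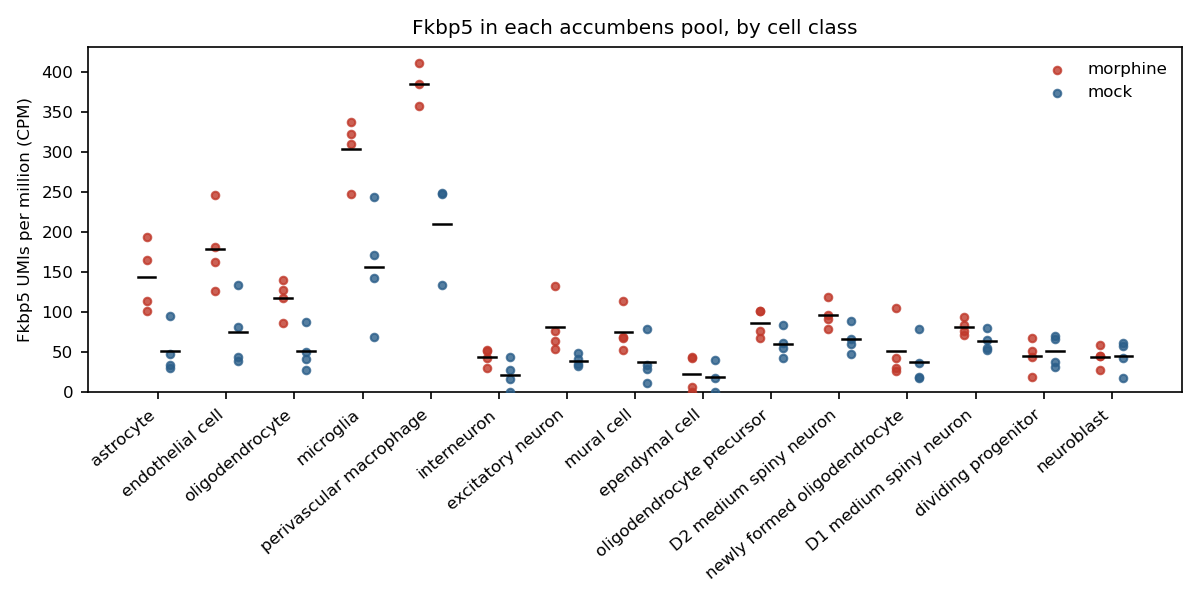
CPM of Fkbp5 UMIs by class, 1 point per pool, morphine (red) left of mock (blue), bars at group means, classes ordered by the log2 fold change of a fit without a filter on low counts. The groups do not overlap in 4 of the 11 tested classes: astrocytes, microglia, perivascular macrophages and excitatory neurons. The share of all genes without overlap was not counted. The means of dividing progenitors and neuroblasts are slightly lower after morphine.

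Whether the Fkbp5 response of oligodendrocytes departed from that of each other class was read from an interaction of class and treatment, and over the 10 other classes where Fkbp5 was tested its difference passed in none after adjustment over all genes. The response in oligodendrocytes was larger than in D1 medium spiny neurons by 0.86 log2 units (SE 0.225, edgeR unadjusted p = 0.00126, adjusted p = 0.608) and than in D2 medium spiny neurons by 0.68 (SE 0.23, edgeR adjusted p = 1). The exact two-sided permutation p over the 8 pools was 0.0286 for the D1 comparison, the smallest possible, and 0.285 after Benjamini-Hochberg adjustment over the 10 classes. Against astrocytes the difference was -0.28 (SE 0.271) and against the endothelial class -0.12 (SE 0.279). These do not show that the classes respond alike.

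Set side by side, classes with more Nr3c1 in mock pools tended to show a larger Fkbp5 difference, as a description over classes that share pools. Over the 11 tested classes Pearson's r between the log2 level of Nr3c1 in mock pools and the log2 fold change of Fkbp5 was 0.472 (Spearman's rho 0.536), and for Nr3c2 it was -0.446 (rho -0.409). The endothelial class combined the highest Nr3c1 with a log2 fold change of 1.29, while astrocytes had the highest fold change at a middle Nr3c1 level of 160 CPM. Oligodendrocyte precursors went against the trend, with 192 CPM of Nr3c1 and a log2 fold change of 0.61. The 11 classes include perivascular macrophages, which the filter kept through their morphine pools alone. They also include interneurons and mural cells, whose mock pools alone fell short of the filter. With no filter on low counts, chosen after seeing that Fkbp5 was tested in 11 classes, all 15 classes gave r of 0.743 for Nr3c1 and 0.359 for Nr3c2, so the sign for Nr3c2 turned.

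**Figure D4:**
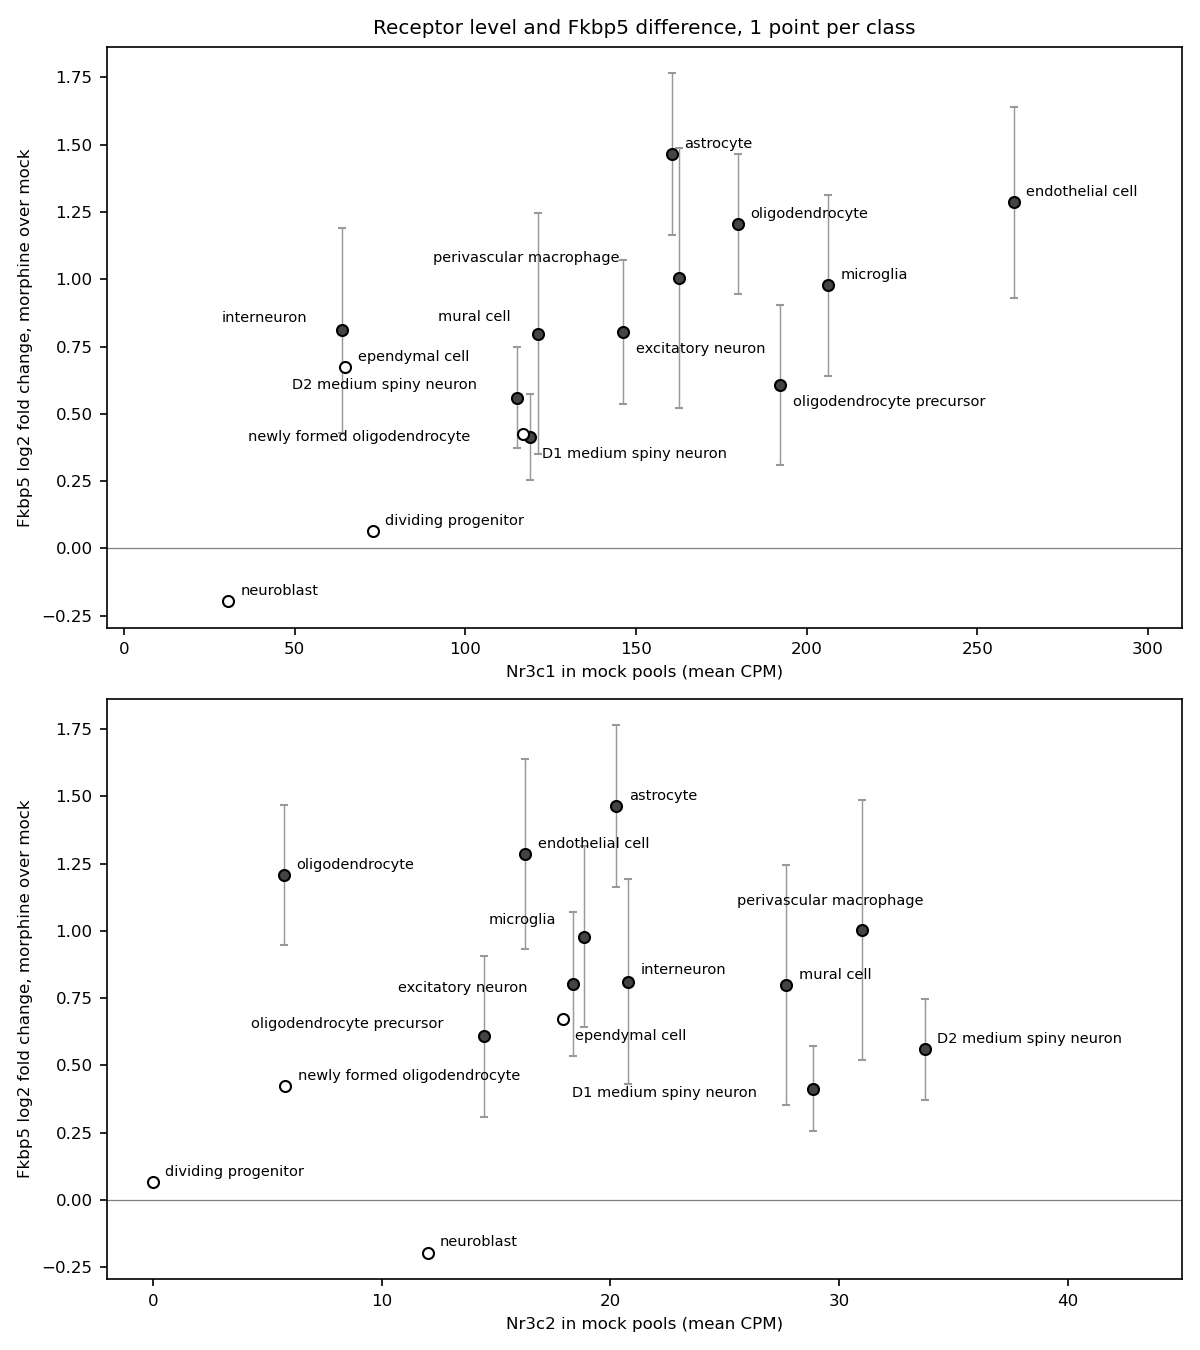
Log2 fold change of Fkbp5, morphine over mock, against the mean level of Nr3c1 (top) or Nr3c2 (bottom) in mock pools, 1 point per class. Filled points are the 11 classes tested, with their standard error, and open points are the 4 classes fitted only without the filter on low counts; Nr3c1 gives r of 0.472 and Nr3c2 -0.446 over the filled points, with levels on a log2 scale.

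Stip1, Fkbp4 and Ptges3 were detected in every class, and Stip1 and Fkbp4 had fold changes below 0 in most, but none was called. Stip1 had a log2 fold change below 0 in 13 of 14 tested classes (median -0.24) and Fkbp4 in 12 of 14 (median -0.18), while Ptges3 was below 0 in 7 of 14 (median 0.01). The median over all genes tested lay between -0.03 and 0.01 in each class. The classes come from the same pools and are not independent of each other. The share of all genes with such sign counts was not counted. Groups of pools did not overlap in 1 of 14 classes for Stip1, 2 of 14 for Fkbp4 and 0 of 14 for Ptges3. The share of all genes without overlap was not counted, so the cases below only describe values. Stip1 in ependymal cells, which line the ventricles, stood at 198, 163, 240.8 and 248.5 CPM in morphine pools and 660, 278 and 364 CPM in the 3 mock pools with enough cells. The groups did not overlap, and the log2 fold change was -0.95 (SE 0.3, edgeR adjusted p = 0.454). Without mock pool 1 it was -0.44. Fkbp4 in the endothelial class stood at 76.0, 99.3, 100 and 90.7 CPM in morphine pools and 155, 117, 165 and 162 CPM in mock pools. These groups did not overlap either, with a log2 fold change of -0.62 (SE 0.204, edgeR adjusted p = 1). In D2 medium spiny neurons Fkbp4 was at 57.6 ± 7.51 CPM in morphine pools and 81.6 ± 13.4 CPM in mock pools (SD, n = 4 each), again without overlap, at a log2 fold change of -0.42 (SE 0.158, edgeR adjusted p = 1). The D2 groups were barely apart, with the highest morphine pool at 67.36 CPM and the lowest mock pool at 67.72 CPM. In the oligodendrocyte class the values were -0.36 for Stip1 (SE 0.236), -0.25 for Fkbp4 (SE 0.158) and -0.03 for Ptges3 (SE 0.144), each smaller than in the sorted cells. Fkbp4 was lower in the morphine pool of 4 of 4 pairs there, and its blocked value was -0.23 (SE 0.121, edgeR adjusted p = 0.546). The difference between the assays was not tested.

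By level in mock pools, dividing progenitors held most Fkbp4 (250 ± 45.9 CPM, n = 4), though their range overlapped those of newly formed oligodendrocytes and neuroblasts, and ependymal cells most Ptges3 (564 ± 132 CPM, n = 3) and Stip1 (434 ± 201 CPM, n = 3; all SD). Dividing progenitors came next for both, with 387 ± 65.2 CPM of Ptges3 and 352 ± 49.8 CPM of Stip1 (SD, n = 4), and only for Stip1 did the ranges of the pair overlap. Endothelial cells, highest for Nr3c1, were lowest for Stip1 at 108 ± 32.4 CPM (SD, n = 4).

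**Figure D5:**
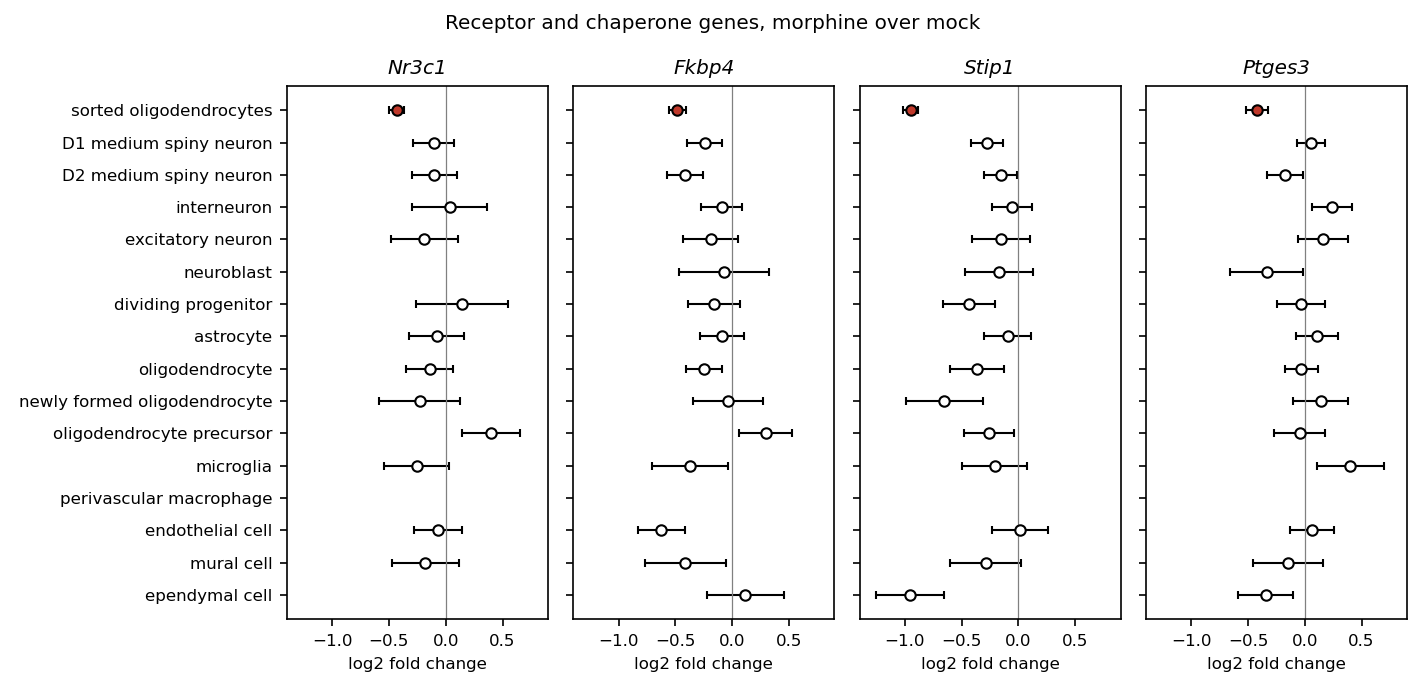
Log2 fold change, morphine over mock, with its standard error for Nr3c1, Fkbp4, Stip1 and Ptges3 in sorted oligodendrocytes (top row) and in each accumbens class where the gene was tested; filled points passed the adjusted threshold. Stip1 is below 0 in 13 of 14 classes and Fkbp4 in 12 of 14, and the sorted cells alone hold filled points. The classes come from the same pools and are not independent of each other.

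Hsd11b1 was found mainly in astrocytes. It stood at 166, 100.1, 106 and 111 CPM in morphine astrocytes and 176, 87.0, 160 and 115 CPM in mock astrocytes, and the groups overlapped (log2 fold change -0.08, SE 0.232, edgeR adjusted p = 0.994). A UMI of Hsd11b1 was found in 428 of 2692 astrocytes, or 15.9% (95% exact Clopper-Pearson interval 14.5% to 17.3%, counting error only), at a median of 1535 UMIs per cell. Excitatory neurons followed with 28 of 1516 cells, or 1.85%, at a median of 4824 UMIs, and in the other classes the share was 0.185% to 1.05%, a level that is read as background. The highest mean outside astrocytes was 12.7 CPM in mock perivascular macrophages, on 2 UMIs.

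Of the genes known to be induced by glucocorticoids, only a few were called in single classes, by the main test. In astrocytes 2 of 25 tested rose (median log2 fold change 0.38), Cdkn1a at 312 ± 123 CPM in morphine and 87.8 ± 31.8 CPM in mock pools (1.81, edgeR adjusted p = 0.00306) and Tsc22d3, which encodes the glucocorticoid-induced leucine zipper, at 1370 ± 240 and 699 ± 142 CPM (1.06, edgeR adjusted p = 0.0131; SD, n = 4 each). In oligodendrocytes 2 of 23 tested rose (median 0.75), Cdkn1a at 1075 ± 230 and 191 ± 162 CPM (2.54, edgeR adjusted p = 0.0201) and Pnpla2, which encodes a triglyceride lipase, at 94.3 ± 5.26 and 40.3 ± 11.4 CPM (1.23, edgeR adjusted p = 0.0201; SD, n = 4 each). Leaving out single pools ended the calls of Tsc22d3, of Pnpla2 and of Cdkn1a in oligodendrocytes, with adjusted p up to 0.123. In D1 medium spiny neurons the list's median was 0.38 with none of 24 called, and in D2 medium spiny neurons 0.16 with none of 21 called. None of the 24 genes of the Hsp90 cycle was called in any class.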

How the data were processed

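Drop-seq was run on 8 pools of nucleus accumbens and bulk RNA-seq on 6 libraries of sorted oligodendrocytes. The deposited accumbens values are whole-number UMI counts for every gene in every barcode, and those of the sorted cells are read counts. Build mm10 and the tools STAR 2.4.2a, Trimmomatic 0.36, HTSeq, DESeq and DESeq2 are listed, with no role, per the submitters' processing notes. Per the labels' protocols, RNA of the sorted cells was amplified. The interval given for detection of Hsd11b1 in accumbens astrocytes covers counting error only. The authors' deposited table of comparisons holds log2 fold changes, p-values and mean signal per gene over all libraries; the last was not used. Rows of the sorted table that name no gene took 69.5% to 74.3% of reads and were left out.

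The accumbens pools of number 1 held 6119 symbols found in no other pool, with 0.777% of their UMIs, and these were left out. Of 36000 barcodes, 33225 passed filters of 300 genes or more and a mitochondrial share of 20% or less. Scrublet's automatic threshold called 0 doublets in 4 pools, so the 5% highest scores per pool were removed instead. In scanpy 1.11.5, 2000 variable genes, 30 components, 15 neighbours and resolution 1 gave 27 clusters, named from marker lists. UMIs were summed per pool and class (at least 10 cells in 3 pools of each group). Tests used edgeR 4.0.16 in R 4.3.3 (TMM, filterByExpr, quasi-likelihood), with no covariates and Benjamini-Hochberg adjustment over all genes tested, and were checked on simulated data. Differences between classes were tested with the pool as a block. RPKM use GENCODE vM21 exon lengths. Shared pool numbers were tested by the correlation of deviations from group means: it exceeded 0.1 in every pair in astrocytes (0.224 to 0.573), oligodendrocytes (0.324 to 0.632), precursors, microglia and endothelial cells, so numbers were read as pairs there. Pairing was less clear in endothelial cells, where morphine pool 4 had r of 0.323 with its own number and 0.342 with another. The labels give pools of the same number the same age range in both groups, and name no shared litter, batch or day. For the sorted cells the design text gives 3 against 3 mice, while the labels of single libraries give no number of mice. The p-values of the sorted cells measure only the spread between these samples.

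Genes named are the 7 members in every comparison, the called genes of smallest p (up to 4) of each list, and the 3 genes most like Nr3c1, Nr3c2 and Fkbp5 in mock level. The values of 1 gene that the rule names are not reported here. Members, lists and tests were chosen with earlier results of these data known. Alternatives were DESeq2 1.42.0, no filter, each replicate left out, the replicate block, age, library sizes without mitochondrial genes, classes from marker scores, and doublets kept.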

Additional observations from a re-analysis of the deposited data

Results flagged for a closer look

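Member levels were examined in 151 groups of 4 pools, and a single pool stood apart from the other 3 in 3 of them, where chance flags about 1 in 20 groups. Hsd11b1 in morphine astrocytes was 166 CPM in pool 1, against 100.1 to 111 CPM in the other morphine pools. Fkbp4 in morphine ependymal cells was 206 CPM in pool 2, against 111 to 124 CPM. Ptges3 in morphine neuroblasts was 119 CPM in pool 1, against 162 to 168 CPM. No difference of a member's response between oligodendrocytes and another class passed the adjusted threshold.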

How the results depend on the processing

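In the sorted cells, Nr3c1, Fkbp5, Fkbp4, Ptges3 and Stip1 kept their direction and call in all 10 alternatives, with log2 fold changes of -0.48 to -0.37, 3.36 to 3.57, -0.55 to -0.41, -0.48 to -0.36 and -0.99 to -0.90. The uncalled values of Nr3c2 and Hsd11b1 changed sign when single libraries were left out, over ranges of -0.17 to 0.07 and -0.07 to 0.29 (0.066, 0.063, 0.019 and 0.05 for Nr3c2, and -0.072 and -0.066 for Hsd11b1). Genes called in sorted cells numbered 1761 to 2701 with 1 library left out. With the column number as a replicate block 2200 were called, and no member's call changed; same-numbered columns did not deviate together (r of -0.26 to 0.11, 1 of 3 best with its own number), so they share only a number.

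In the accumbens, the 10 genes called over all classes became 42 with DESeq2, 183 with no filter on low counts, 3 with pools of younger mice alone and 3 to 24 with 1 pool left out (24 without mock pool 4, 5 without mock pool 1, 4 without morphine pool 1, and 3 without mock pool 2 or morphine pool 3), and over all cells the 0 genes became 4 with DESeq2. With the replicate block the total was 219, of which 33 in astrocytes and 140 in oligodendrocytes; beyond Fkbp5 in these classes it changed no other member's call. Outside the 5 classes where numbers were read as pairs, same-numbered pools share an age range and some deviated together (r of -0.07 to 0.84 over all cells), but not every pair did. Fkbp5 was above 0 in the 11 tested classes and all cells under every alternative run; 5 alternatives that tested it in further classes put 1 of those below 0. It was called in 5 of 17 alternatives in astrocytes, 4 of 17 in oligodendrocytes and 1 of 17 in the endothelial class, where no filter gave an adjusted p of 0.003. For receptor level and response, classes from marker scores gave r of 0.724 for Nr3c1 and -0.268 for Nr3c2, and no filter gave 0.743 and 0.359, where a move over 0.1 counts as a change. The causes were not tested. Nr3c2, at a few UMIs per pool outside neurons, and perivascular macrophages are limited by depth.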
